A study of Homo sapiens with 32 samples.

Results

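The genes that carry out messenger RNA decay were followed in both newly made and total RNA of human B-lymphoblastoid cell lines. The set held 48 genes, picked by their symbols with earlier results of these data known, and grouped by the step they serve: 14 for deadenylation, 17 for decapping and 5′-to-3′ decay, 10 for the exosome and 7 for nonsense-mediated decay. Of the 21788 transcript clusters of the array, 41 carried the symbol of a single member, 1 cluster for each of 41 genes. CNOT1, CNOT3, CNOT10, DIS3 and SMG1 had only clusters shared with other symbols and were not used, and no cluster was named for UPF3A or UPF3B. LSM5 lay below background on average (mean over arrays 6.19 log2, background 6.40 log2) and was not tested, which left 40 members.

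Decay of most human mRNAs begins with the shortening of the poly(A) tail by the CCR4-NOT and PAN2-PAN3 complexes. The message is then either decapped and degraded from its 5′ end or degraded from its 3′ end by the exosome, a ring of protein subunits bound by catalytic ribonucleases. Nonsense-mediated decay is a surveillance pathway that uses the helicase UPF1 to remove mRNAs on which translation ends too early, and it also lowers the level of some normal transcripts.

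The study measured mRNA stability from the nascent/total ratio and asked which genes differ in it between people. All 13 cultures, from 7 HapMap lines of the Coriell repositories, received 200 µM 4-thiouridine (4sU), a nucleoside that marks RNA made during the 2 h of treatment. The 4sU-marked (nascent) RNA and the total RNA of a culture were hybridised to separate human exon arrays, 32 arrays in all. The labels give 3 biological replicates each for GM12813, GM10835 and GM07029 and 1 culture each for GM12815, GM12814, GM12812 and GM07019, and each GM12813 culture had technical duplicates in both fractions. Every group therefore consists of 4sU-treated cells, and a line is 1 donor's cells, so that line, donor and culture history cannot be told apart. The 6 B cell markers with a cluster of their own (MS4A1, CD79A, CD79B, PAX5, CD22 and BLK) had mean total RNA between 8.83 and 11.5 log2, above background. Among markers of cells that such a culture should lack, NKG7 (1 of 7 for T and NK cells, 7.68 log2) and the keratins KRT8 and KRT18 (2 of 6 for fibroblasts and epithelia) were above background, and 0 of 6 for monocytes and granulocytes were. The higher of these keratins had mean total RNA of 10.3 log2, within the range of the B cell markers.

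Array medians lay between 7.58 and 7.92 log2 in nascent RNA and between 6.74 and 6.95 log2 in total RNA, so the ratio was centred on the median cluster of each culture. All ratios below are nascent minus total log2 values after this centring, and a positive value means more newly made RNA for its total RNA than the median of 14167 clusters above background. A gene is called higher or lower where limma's adjusted p (Benjamini-Hochberg over those clusters) was under 0.05. Levels of different genes are not compared, since their probes differ, and the small number of arrays limits the precision of every value. In RNA from a whole culture, a larger share of cells with a transcript and more transcript per cell cannot be told apart.

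The first comparison asked which decay genes had much or little new RNA for their total RNA across the 7 lines. Of the 40 members, 13 were higher and 13 lower than the median cluster, and 14 did not pass the test. That is 65.0% of the members, against 63.5% of all clusters tested, with 31.7% of all clusters higher and 31.7% lower, so the members as a whole were called about as often as other genes. Their median ratio was -0.06, against -0.01 for all clusters, and 19 members (47.5%) had the same sign in all 7 lines, against 50.1% of all clusters. The steps differed in their counts: 2 of 11 deadenylation genes were higher and 6 lower, 6 of 16 decapping genes were higher and 5 lower, 2 of 9 exosome genes were higher and 2 lower, and 3 of 4 genes of nonsense-mediated decay were higher and 0 lower (0 also at an unadjusted p under 0.05 in limma). The plot of ratios by line shows each of these genes with its 7 values.

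**Figure D1:**
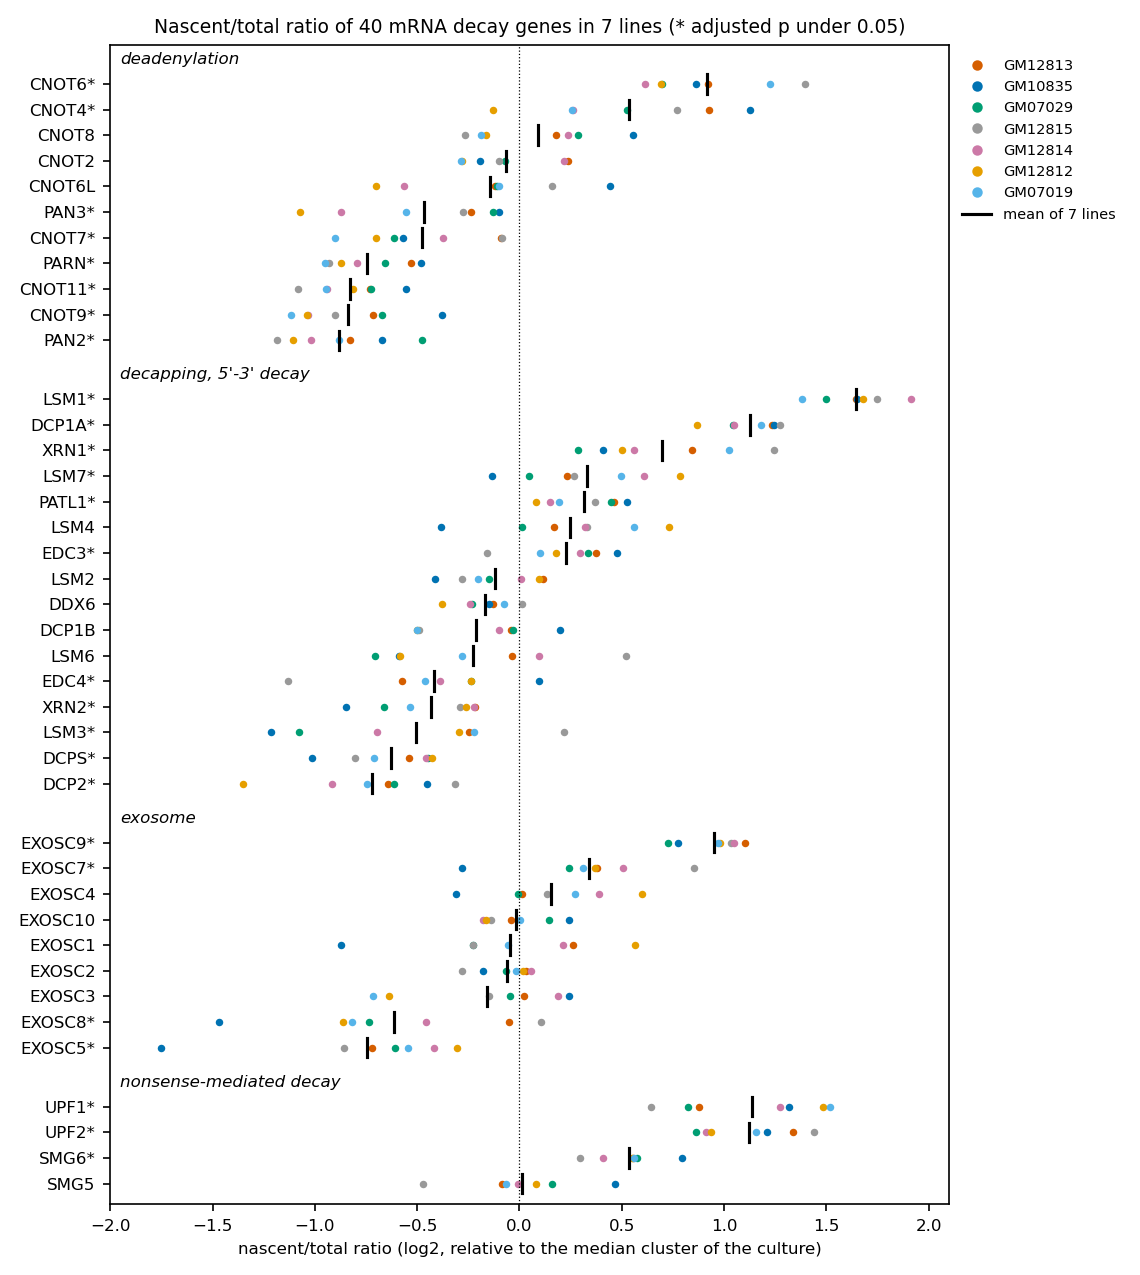
Nascent/total ratio (log2, horizontal axis) of the 40 tested mRNA decay genes, with 1 point for each of 7 cell lines and a bar at their mean; an asterisk marks an adjusted p under 0.05. LSM1 has the highest mean (1.64) and PAN2 the lowest (-0.88), and GM10835 has the lowest ratio of the 7 lines for EXOSC1, EXOSC5 and EXOSC8.

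Among the deadenylation genes, the nascent/total ratio separated the catalytic subunit CNOT6 and the ubiquitin ligase CNOT4 from most of the rest. CNOT6, a nuclease of CCR4-NOT, had ratios between 0.61 (GM12814) and 1.40 (GM12815), with a median of 0.86. All 7 lines were above 0, and the mean was 0.92 ± 0.29 (SD, n = 7 lines; adjusted p = 1.99e-05). CNOT4 ranged between -0.13 in GM12812 and 1.12 in GM10835 with a median of 0.53, and its mean of 0.53 ± 0.44 was also higher (adjusted p = 0.0052), with 1 line below 0.

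The 6 deadenylation genes with low ratios belong to all 3 deadenylase systems. PAN2, the nuclease of PAN2-PAN3, had the lowest mean of all members (-0.88 ± 0.25, adjusted p = 9.37e-06), with line values between -1.19 (GM12815) and -0.48 (GM07029) and a median of -0.88. CNOT9, the subunit that binds adaptor proteins, ranged between -1.12 (GM07019) and -0.38 (GM10835) around a median of -0.90, and its mean was -0.84 ± 0.26 (adjusted p = 1.68e-05). CNOT11, which pairs with CNOT10, ranged between -1.08 (GM12815) and -0.56 (GM10835) around a median of -0.82, with a mean of -0.83 ± 0.18 (adjusted p = 4.7e-06). None of the 7 lines reached 0 for these 3 genes. The poly(A)-specific ribonuclease PARN (-0.75), the nuclease CNOT7 (-0.48) and PAN3 (-0.46), the RNA-binding partner of PAN2, completed the lower group. CNOT8 (0.09), the CCR4-NOT subunit CNOT2 (-0.07) and CNOT6L (-0.14) did not pass.

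In decapping and 5′-to-3′ decay, high ratios were found for an activator, a cofactor and the exonuclease, whereas the catalytic subunit of decapping had a low one. LSM1, the subunit that sets the cytoplasmic LSM1-7 ring apart from the nuclear one, had ratios between 1.38 (GM07019) and 1.91 (GM12814) with a median of 1.65. It was 3.13 times the median cluster on average, the largest value among members (mean 1.64 ± 0.17, adjusted p = 4.83e-07). Its total RNA was below background in 1 line, GM12815 (6.29 log2). DCP1A, a cofactor of the decapping enzyme, ranged between 0.87 (GM12812) and 1.27 (GM12815) around a median of 1.18, and its mean of 1.13 ± 0.15 was 2.18 times the median cluster (adjusted p = 1.02e-06). XRN1, the exonuclease that degrades decapped mRNA in the cytoplasm, ranged between 0.29 (GM07029) and 1.24 (GM12815) around a median of 0.56, with a mean of 0.70 ± 0.35 (adjusted p = 0.000314). All 7 lines were above 0 for LSM1, DCP1A and XRN1.

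DCP2, the enzyme that removes the cap, had the lowest ratio of this step. Its line values ran from -1.35 (GM12812) to -0.32 (GM12815) with a median of -0.64 and a mean of -0.72 ± 0.34 (adjusted p = 0.000171). DCPS, which hydrolyses the cap left over after 3′-to-5′ decay, ranged between -1.02 (GM10835) and -0.43 (GM12812) around a median of -0.54, with a mean of -0.63 ± 0.22 (adjusted p = 7.13e-05). LSM3, a subunit of both LSM rings, was wider, between -1.22 (GM10835) and 0.22 (GM12815) with a median of -0.30 and a mean of -0.51 ± 0.51 (adjusted p = 0.0131). GM12815 was the only line above 0 for LSM3, and none was for DCP2 or DCPS.

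XRN2, the nuclear relative of XRN1, was lower (-0.43), as was EDC4 (-0.42), the scaffold between DCP1 and DCP2. PATL1, which bridges the LSM ring and DDX6, was higher (0.32), as were LSM7 (0.33) and the decapping enhancer EDC3 (0.23). The last 2 calls depended on single lines. EDC3 lost its call without any 1 of GM12813, GM10835, GM07029, GM12814 and GM12812 (highest adjusted p = 0.0962), and LSM7 lost it without GM12814, GM12812 or GM07019 (highest adjusted p = 0.0626). LSM4 (0.25), LSM2 (-0.12), the helicase DDX6 (-0.17), DCP1B (-0.21) and LSM6 (-0.22) did not pass. LSM5 averaged 7.08 log2 in nascent RNA but 4.85 log2 in total RNA, below background in all 7 lines (4.18 to 5.54 log2), so no ratio is ranked for it.

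The exosome genes divided into 1 clearly high ratio and a pair of low ones. EXOSC9, a subunit of the ring, had ratios between 0.73 (GM07029) and 1.10 (GM12813) with a median of 0.98, and its mean of 0.95 ± 0.14 (adjusted p = 2.18e-06) was 1.93 times the median cluster. EXOSC7, another ring subunit, ranged between -0.28 (GM10835) and 0.85 (GM12815) around a median of 0.37, with a mean of 0.34 ± 0.34 (adjusted p = 0.0215). GM10835 was the only line below 0 for EXOSC7, and the call was lost without GM12815 or GM12814 (highest adjusted p = 0.0587).

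EXOSC5 and EXOSC8, also of the ring, were lower. EXOSC5 ranged between -1.75 (GM10835) and -0.31 (GM12812) with a median of -0.61 and a mean of -0.74 ± 0.48 (adjusted p = 0.000895). EXOSC8 ranged between -1.47 (GM10835) and 0.10 (GM12815) around a median of -0.74, and its mean was -0.61 ± 0.53 (adjusted p = 0.0054). The lowest value of both genes was in GM10835, and GM12815 was the only line above 0 for EXOSC8. The cap subunits EXOSC1 (-0.05), EXOSC2 (-0.06) and EXOSC3 (-0.16), the ring subunit EXOSC4 (0.16) and the nuclear ribonuclease EXOSC10 (-0.02) did not pass.

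In nonsense-mediated decay, the helicase UPF1 and its partner UPF2 had nearly equal high ratios. UPF1 ranged between 0.64 (GM12815) and 1.52 (GM07019) with a median of 1.27, and its mean of 1.13 ± 0.35 was 2.19 times the median cluster (adjusted p = 9.41e-06). UPF2, which links UPF1 to the exon junction complex, ranged between 0.86 (GM07029) and 1.44 (GM12815) with a median of 1.15 and a mean of 1.12 ± 0.22, 2.18 times the median cluster (adjusted p = 2.15e-06). SMG6, the endonuclease that cuts the target near the stop codon, ranged between 0.30 (GM12815) and 0.79 (GM10835) with a median of 0.55 and a mean of 0.53 ± 0.15 (adjusted p = 0.000122). All 7 lines were above 0 for these 3 genes. SMG5, an adaptor that recognises phosphorylated UPF1, stood at 0.01 ± 0.28 and did not pass.

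Paralogues of the machinery had different ratios in the same cultures. CNOT6L minus CNOT6 was -1.06 ± 0.34 (SD, n = 7 lines) and lay between -1.39 and -0.42, below 0 in every line. DCP1A minus DCP1B was 1.34 ± 0.29, between 1.05 and 1.76, above 0 in 7 of 7 lines. CNOT8 minus CNOT7 was 0.57 ± 0.43, between -0.18 and 1.12, and above 0 in 6 of 7 lines. These differences were not tested. Each pair was measured with different probes, and total RNA of CNOT6L was below background in 2 lines.

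The next comparison asked whether the decay genes differ between the 3 lines with 3 cultures each, GM12813, GM10835 and GM07029. Limma's F test over 9 cultures called 15 of 40 members in the ratio (37.5%, against 25.4% of all clusters), 27 in total RNA (67.5%, against 56.3%) and 27 in nascent RNA (67.5%, against 56.7%). The ratio is the difference of the other measures, so these 3 counts are linked. The ratio count dropped to 8 without GM10835 replicate 3 (12.8% of all clusters) or GM12813 replicate 2 (13.8%). Of the 40 members, 10 were called in all 3 measures (25%, against 14.5% of all clusters), 3 in ratio and total RNA (7.5%, against 6.39%) and 2 in ratio and nascent RNA (5%, against 3.69%). Of the members not called in the ratio, 9 were called in nascent and total RNA (22.5%, against 26.2%), 5 in total RNA alone (12.5%, against 9.15%), 6 in nascent RNA alone (15%, against 12.2%) and 5 in no measure (12.5%, against 27%). The range of line means was wider in total than in nascent RNA for 31 of 40 members (77.5%, against 65.9% of all clusters). By step, total RNA differed for 7 of 11 deadenylation genes, 12 of 16 decapping genes, 7 of 9 exosome genes and 1 of 4 genes of nonsense-mediated decay.

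The largest line differences in total RNA were found among exosome subunits, which were high in GM10835. Total RNA of 7 of 9 exosome genes was lower in GM12813 than in GM10835 (25.4% of all clusters were lower in this contrast). Total RNA of 6 of 9 was higher in GM10835 than in GM07029 (29% of all clusters). In the opposite directions limma called 0 of 9 in both contrasts (12.6% and 18.9% of all clusters), and 0 at an unadjusted p under 0.05. The LSM genes, a part of the decapping step, were not among the groups planned in advance. Of the 6 tested, 5 were lower in GM12813 than in GM10835 and 5 higher in GM10835 than in GM07029. Of the 16 genes of the whole decapping step, 7 were lower (25.4% of all clusters) and 1 higher (12.6%) in GM12813 than in GM10835. In GM10835 against GM07029, 6 were higher (29% of all clusters) and 3 lower (18.9%). Across 15 alternative settings, chosen after the data were seen, the 4 exosome and LSM counts lay between 6 and 7, 5 and 6, 5 and 6, and 4 and 6. Among the 7 lines, GM10835 had the highest total RNA for 6 of 9 exosome genes and 6 of 6 LSM genes, against 30.2% of all clusters. It was highest for 8 of 16 genes of the decapping step, which include the LSM genes. The median cluster itself was 0.10 log2 higher in GM10835 than in GM07029 in total RNA and 0.16 log2 higher in nascent RNA. By contrast, total RNA of 0 of 11 deadenylation genes was highest in GM10835, and 5 of 11 had their lowest value there, against 14.2% of all clusters.

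**Figure D2:**
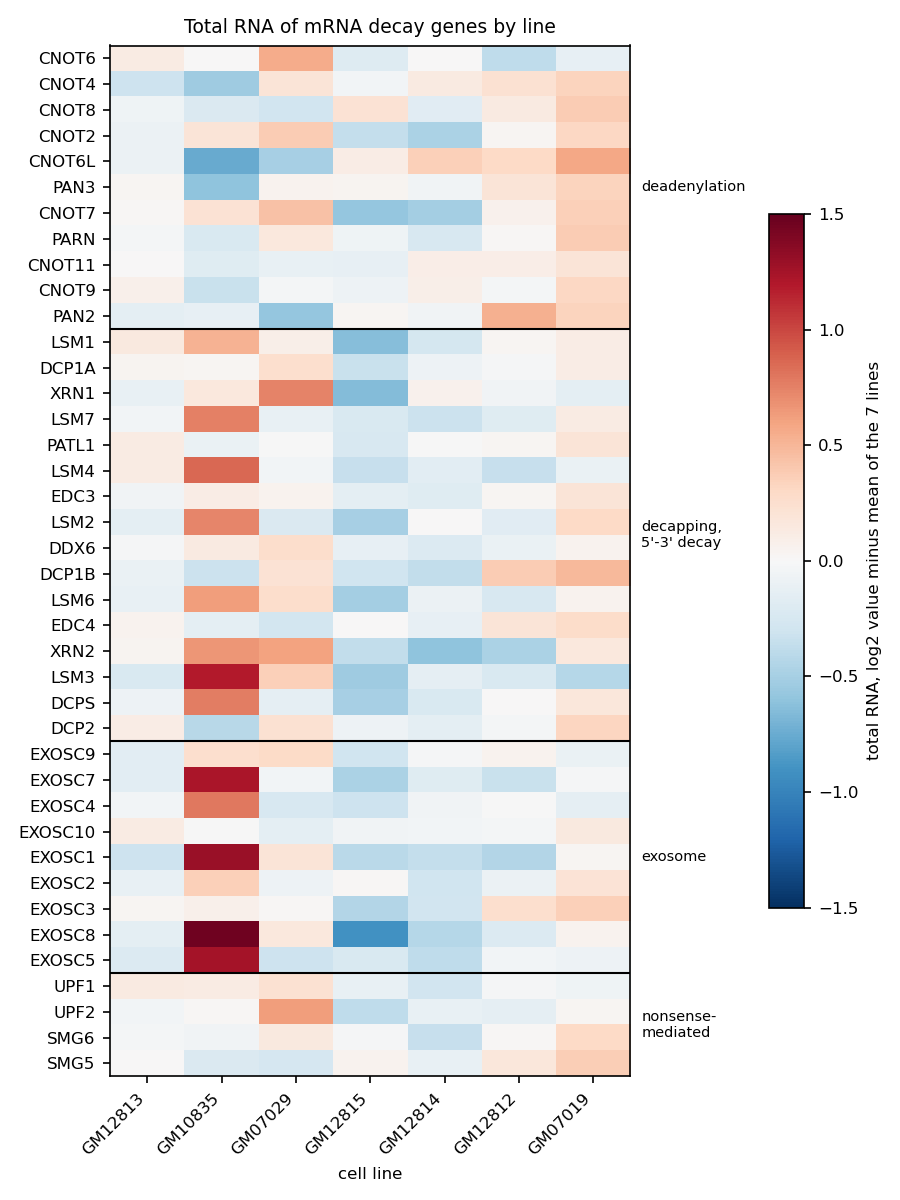
Total RNA of the 40 tested mRNA decay genes (vertical axis, by step) in 7 cell lines (horizontal axis), as the log2 value minus the mean of the 7 lines. GM10835 has the highest value for 6 of 9 exosome genes, 8 of 16 decapping genes (among them 6 of 6 LSM genes) and 0 of 11 deadenylation genes.

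EXOSC8 (transcript cluster 3485863) had, with EXOSC1, the widest range of line means in total RNA, 1.60 log2. Its total RNA was 8.42, 8.27 and 7.53 log2 in the 3 GM12813 cultures, 9.64, 9.53 and 9.86 in GM10835, and 8.05, 8.21 and 8.84 in GM07029. Every GM10835 culture was above every other culture, while GM12813 and GM07029 overlapped. Nascent RNA of EXOSC8 was 8.90, 8.87 and 8.69 log2 in GM12813, 8.92, 9.06 and 9.14 in GM10835, and 8.60, 8.21 and 8.37 in GM07029. There GM12813 lay just under GM10835, and the difference between them was -0.22 (adjusted p = 0.136), against -1.60 in total RNA (adjusted p = 0.000367). The ratio was accordingly 1.42 higher in GM12813 than in GM10835 (adjusted p = 0.00133), the widest ratio difference of any member, with means of -0.05 ± 0.29 in GM12813, -1.47 ± 0.13 in GM10835 and -0.74 ± 0.47 in GM07029 (SD, n = 3 cultures each).

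EXOSC1 (cluster 3302328) had total RNA of 8.40, 8.25 and 7.89 log2 in GM12813, 9.81, 9.62 and 9.93 in GM10835, and 8.46, 8.62 and 8.98 in GM07029. The 3 lines did not overlap, and GM12813 was 1.60 below GM10835 (adjusted p = 3.06e-05). In nascent RNA EXOSC1 had 9.34, 9.24 and 9.15 log2 in GM12813, 9.72, 9.72 and 9.78 in GM10835, and 9.47, 9.02 and 9.18 in GM07029. GM10835 was again highest, but GM12813 was only 0.49 below it (adjusted p = 0.00302). The ratios of 0.26 ± 0.11 in GM12813 and -0.87 ± 0.11 in GM10835 differed by 1.14 (adjusted p = 0.00121), and GM07029 stood between them at -0.22 ± 0.39.

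EXOSC5 (cluster 3863060) had total RNA of 8.30, 7.91 and 7.94 log2 in GM12813, 9.51, 9.56 and 9.44 in GM10835, and 7.76, 7.86 and 8.22 in GM07029. GM10835 stood more than 1 log2 unit above all other cultures, and the other lines overlapped. Its nascent RNA was 8.17, 8.06 and 8.17 log2 in GM12813, 8.68, 8.59 and 8.48 in GM10835, and 8.09, 8.21 and 8.01 in GM07029, a difference of -0.45 between GM12813 and GM10835 (adjusted p = 0.00183), against -1.45 in total RNA (adjusted p = 2.15e-05). The ratio was -0.72 ± 0.14 in GM12813, -1.75 ± 0.09 in GM10835 and -0.61 ± 0.27 in GM07029. It was 1.03 higher in GM12813 than in GM10835 (adjusted p = 0.000905) and 1.14 lower in GM10835 than in GM07029 (adjusted p = 0.00164).

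EXOSC7 (cluster 2620410) differed in both fractions and had the widest range of any member in nascent RNA, 0.81 log2. Its nascent RNA was 8.73, 8.81 and 8.75 log2 in GM12813, 9.47, 9.60 and 9.47 in GM10835, and 8.87, 8.60 and 8.63 in GM07029. Its total RNA was 7.88, 7.48 and 7.40 log2 in GM12813, 9.01, 8.86 and 9.02 in GM10835, and 7.79, 7.44 and 7.86 in GM07029. GM10835 did not overlap the others in either fraction. GM12813 was below GM10835 by -0.75 in nascent RNA (adjusted p = 5.67e-05) and by -1.38 in total RNA (adjusted p = 3.67e-05), and the ratio of 0.38 ± 0.24 in GM12813 was 0.66 above that of -0.28 ± 0.15 in GM10835 (adjusted p = 0.00948).

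EXOSC4, with 8.40, 8.44 and 8.48 log2 in nascent RNA of GM12813, 9.15, 8.83 and 8.94 in GM10835, and 8.13, 8.17 and 8.24 in GM07029, was the other exosome gene among the widest nascent ranges (0.79). The lines did not overlap, and total RNA differed in the same direction, 0.83 lower in GM12813 than in GM10835 (adjusted p = 0.00185). Its ratio did not pass the F test (adjusted p = 0.238). Nascent RNA of 8 of 9 exosome genes was higher in GM10835 than in GM07029 (41.6% of all clusters), and that of 5 of 9 was lower in GM12813 than in GM10835 (32.4%). The median cluster was itself 0.16 log2 higher in nascent RNA of GM10835 than of GM07029. With each array centred on its median cluster, EXOSC2, EXOSC3, EXOSC5 and EXOSC10 lost the nascent F call (adjusted p = 0.0839, 0.245, 0.0828 and 0.427). The other exosome genes with that call kept it. EXOSC3, a cap subunit, and EXOSC10 did not pass the F test in total RNA (adjusted p = 0.93 and 0.134). EXOSC9 had ratios of 1.00, 1.14 and 1.16 in GM12813, 0.73, 0.82 and 0.79 in GM10835, and 0.70, 0.80 and 0.69 in GM07029. GM12813 lay above both others, but the range of 0.37 was the narrowest called (adjusted p = 0.0493).

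**Figure D3:**
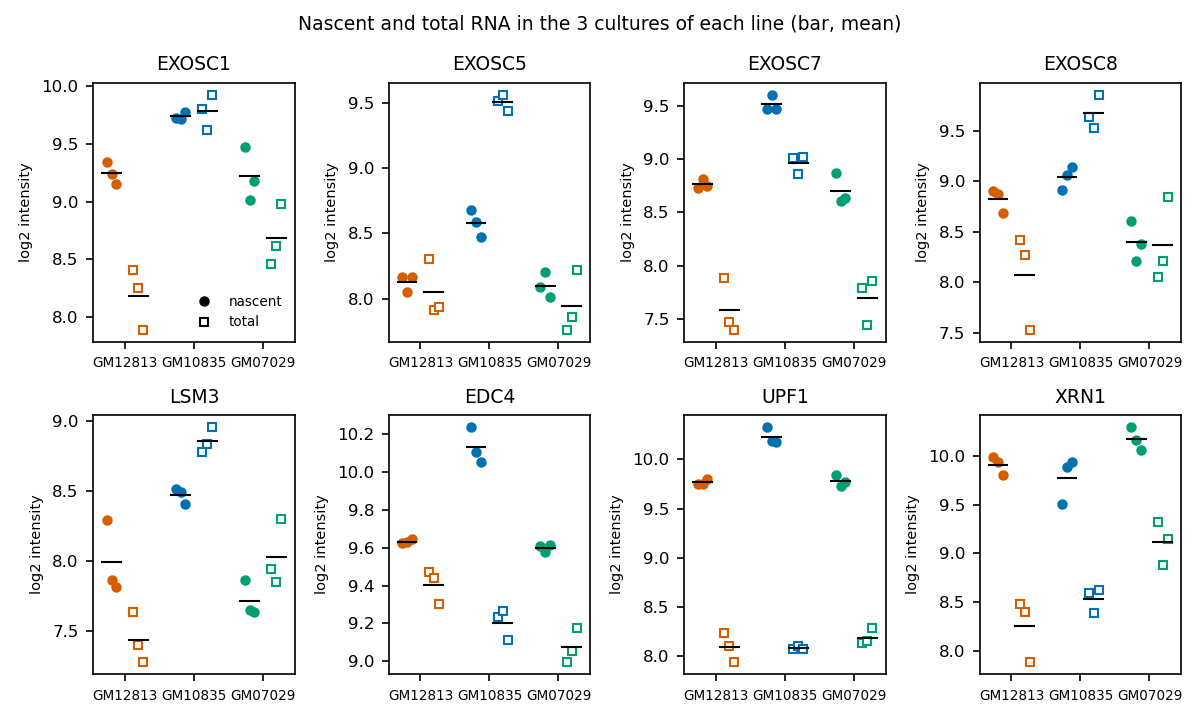
Nascent (filled circles) and total (open squares) RNA, in log2 intensity on the vertical axis, of 8 mRNA decay genes in the 3 cultures each of GM12813, GM10835 and GM07029 (horizontal axis), with a bar at the mean. For EXOSC8, total RNA of GM10835 (9.53 to 9.86) lies above all other cultures while nascent RNA differs less, and for UPF1 and EDC4 the nascent RNA of GM10835 stands apart instead.

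Among the LSM genes, LSM3 (cluster 2562115) had the widest range of total RNA, 1.42 log2. Its total RNA was 7.63, 7.40 and 7.28 log2 in GM12813, 8.78, 8.83 and 8.95 in GM10835, and 7.94, 7.85 and 8.30 in GM07029. The 3 lines did not overlap in total RNA. Its nascent RNA was 8.29, 7.86 and 7.81 log2 in GM12813, 8.51, 8.49 and 8.40 in GM10835, and 7.86, 7.65 and 7.63 in GM07029, with GM10835 highest. The ratio of LSM3 was -0.25 ± 0.14 in GM12813, -1.22 ± 0.15 in GM10835 and -1.08 ± 0.27 in GM07029. GM12813 was 0.97 above GM10835 (adjusted p = 0.0014) and 0.83 above GM07029 (adjusted p = 0.0126), and these groups did not overlap.

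LSM6, another subunit of both LSM rings, was likewise highest in GM12813, with ratios of -0.25, 0.09 and 0.05 in GM12813, -0.77, -0.46 and -0.53 in GM10835, and -0.77, -0.52 and -0.83 in GM07029. GM12813 lay above both other lines, by 0.55 over GM10835 (adjusted p = 0.0157) and 0.67 over GM07029 (adjusted p = 0.0212). LSM4 had ratios of 0.15, 0.21 and 0.16 in GM12813, -0.21, -0.60 and -0.34 in GM10835, and 0.14, -0.16 and 0.05 in GM07029. GM12813 was 0.55 above GM10835 (adjusted p = 0.0104), and GM10835 lay below both other lines without overlap.

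LSM2 and LSM7 were among the widest ranges in nascent RNA, both 0.76 log2. LSM2 had 7.66, 7.67 and 7.65 log2 in GM12813, 8.01, 8.01 and 8.12 in GM10835, and 7.68, 7.11 and 7.06 in GM07029. LSM7 had 8.12, 8.18 and 8.24 log2 in GM12813, 8.83, 8.59 and 8.54 in GM10835, and 7.88, 7.92 and 7.87 in GM07029. GM10835 was highest for both without overlap, and the differences of GM12813 from it were -0.39 for LSM2 and -0.47 for LSM7 (adjusted p = 0.0455 and 0.0017). Their total RNA differed in the same direction, with GM12813 lower than GM10835 by 0.88 for LSM2 and by 0.80 for LSM7 (adjusted p = 0.000631 and 0.000603), and their ratios did not pass the F test.

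The remaining ratio differences of the 5′-to-3′ pathway ran in both directions. EDC4 (cluster 3665882) had ratios of -0.59, -0.59 and -0.53 in GM12813, 0.18, -0.01 and 0.12 in GM10835, and -0.19, -0.25 and -0.28 in GM07029. The 3 lines did not overlap, and GM12813 was 0.67 below GM10835 (adjusted p = 0.00114). In the nascent fraction EDC4 had 9.62, 9.63 and 9.65 log2 in GM12813, 10.24, 10.11 and 10.05 in GM10835, and 9.61, 9.58 and 9.61 in GM07029 (GM12813 minus GM10835 -0.50, adjusted p = 0.00015), while the difference in total RNA was 0.20, in the opposite direction (adjusted p = 0.156).

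XRN2 had a difference in total rather than nascent RNA. Its ratios were -0.32, -0.21 and -0.12 in GM12813, -0.82, -0.73 and -0.99 in GM10835, and -0.43, -0.73 and -0.83 in GM07029. GM12813 lay above the other lines, by 0.63 over GM10835 (adjusted p = 0.0064). GM12813 minus GM10835 was -0.02 in nascent RNA (adjusted p = 0.83), whereas its total RNA was 0.62 lower in GM12813 than in GM10835 (adjusted p = 0.00641). DCPS had ratios of -0.58, -0.49 and -0.54 in GM12813, -1.01, -1.07 and -0.96 in GM10835, and -0.27, -0.41 and -0.67 in GM07029, with GM10835 lowest and separate. Its total RNA was 0.85 lower in GM12813 than in GM10835 (adjusted p = 0.000199) and its nascent RNA 0.40 lower (adjusted p = 0.00185).

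XRN1 differed most in GM07029. Its total RNA was 8.49, 8.41 and 7.89 log2 in GM12813, 8.59, 8.39 and 8.63 in GM10835, and 9.32, 8.88 and 9.15 in GM07029. GM07029 lay above the other lines, which overlapped, and GM12813 was 0.86 below it (adjusted p = 0.00521). Nascent RNA of XRN1 was 0.39 lower in GM10835 than in GM07029 (adjusted p = 0.0102). The F test of nascent XRN1 no longer passed without GM07029 replicate 1 or 2 (highest adjusted p = 0.0825), and its ratio did not pass the F test (adjusted p = 0.0525). UPF2 likewise had higher total RNA in GM07029 (8.68 ± 0.21) than in GM12813 (8.01 ± 0.29) and GM10835 (8.07 ± 0.07, SD, n = 3 cultures each), with an F test adjusted p of 0.00542.

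In nonsense-mediated decay, UPF1 and SMG5 differed between lines in the ratio and in nascent RNA, and did not pass the F test in total RNA. UPF1 (cluster 3825383) had nascent RNA of 9.75, 9.75 and 9.81 log2 in GM12813, 10.33, 10.19 and 10.17 in GM10835, and 9.84, 9.73 and 9.77 in GM07029. GM10835 was highest without overlap, and GM12813 minus GM10835 was -0.46 (adjusted p = 0.000266). Total RNA of UPF1 was 8.23, 8.11 and 7.94 log2 in GM12813, 8.07, 8.10 and 8.07 in GM10835, and 8.13, 8.15 and 8.29 in GM07029, with an F test adjusted p of 0.582. The ratio was 0.88 ± 0.11 in GM12813, 1.32 ± 0.11 in GM10835 and 0.83 ± 0.07 in GM07029, 0.44 lower in GM12813 than in GM10835 (adjusted p = 0.0239). SMG5 had ratios of -0.19, 0.01 and -0.07 in GM12813, 0.45, 0.42 and 0.53 in GM10835, and 0.16, 0.30 and 0.03 in GM07029. The 3 lines did not overlap, and GM12813 was 0.55 below GM10835 (adjusted p = 0.00563).

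By the F test of the ratio, CNOT4 and CNOT6L were the deadenylation genes called. CNOT4 had ratios of 0.80, 0.93 and 1.05 in GM12813, 0.95, 1.27 and 1.15 in GM10835, and 0.57, 0.63 and 0.38 in GM07029. GM07029 lay below both other lines, and GM10835 was 0.60 above it (adjusted p = 0.0158), with total RNA 0.73 lower in GM10835 than in GM07029 (adjusted p = 0.00139) and a nascent difference of -0.06 (adjusted p = 0.689). CNOT6L had ratios of -0.09, -0.10 and -0.17 in GM12813, 0.16, 0.54 and 0.64 in GM10835, and -0.34, 0.04 and -0.03 in GM07029. GM10835 was highest and separate, but its total RNA of 5.88, 5.88 and 5.73 log2 was below background, as it was in 2 of 3 GM07029 cultures, so the size of this difference is uncertain. GM12813 was 0.56 below GM10835 (adjusted p = 0.0192). CNOT8 did not pass the F test of the ratio (adjusted p = 0.0648), but its ratio was 0.38 lower in GM12813 than in GM10835 (adjusted p = 0.036 for this contrast), without overlap. PAN3 had the opposite line pattern from the exosome genes in total RNA, with 9.97, 10.12 and 9.69 log2 in GM12813, 9.32, 9.18 and 9.37 in GM10835, and 9.85, 9.93 and 10.07 in GM07029. GM10835 was lowest without overlap. GM12813 was 0.63 above it (adjusted p = 0.00234), and 0.47 above it in nascent RNA (adjusted p = 0.00114).

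**Figure D4:**
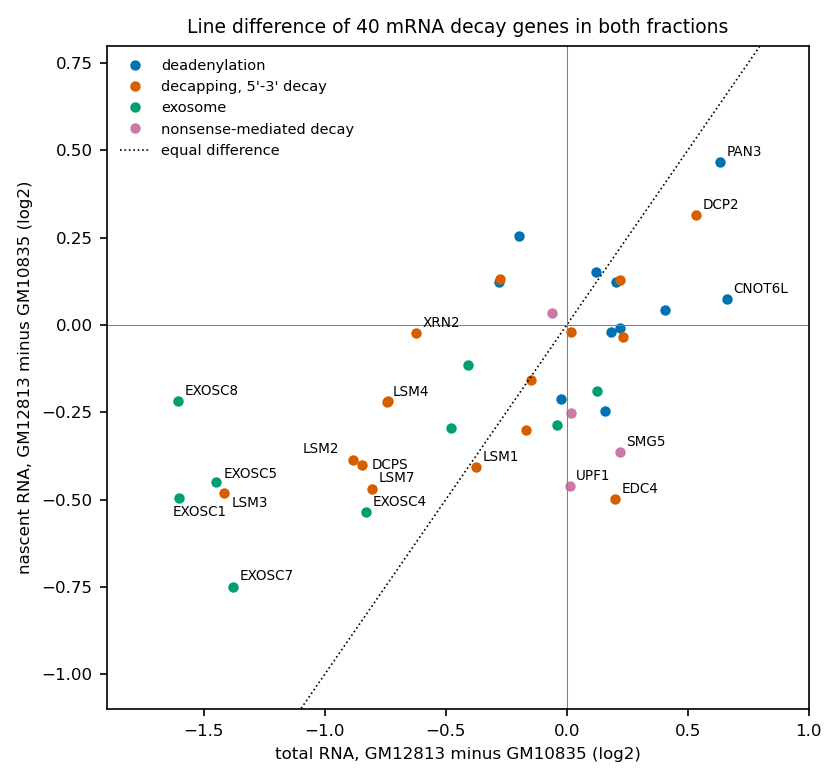
Difference between GM12813 and GM10835 (log2) in nascent RNA (vertical axis) against total RNA (horizontal axis) for the 40 tested mRNA decay genes, coloured by step; the dotted line marks equal differences. EXOSC8 (-0.22 in nascent, -1.60 in total RNA) lies far to the left of the dotted line, while UPF1 (-0.46 in nascent, 0.01 in total RNA) and EDC4 (-0.50 and 0.20) lie to its right.

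In the contrasts of the ratio, 10 members were higher in GM12813 than in GM10835 (12.7% of all clusters) and 5 lower (10.4%). Between GM12813 and GM07029, 2 were higher (4.91%) and 0 lower by limma (0.889%), with 3 lower at an unadjusted p under 0.05. Between GM10835 and GM07029, 4 were higher (7.64%) and 5 lower (6.23%). In total RNA, 4 were higher (12.6%) and 14 lower (25.4%) in GM12813 than in GM10835, 2 higher (10.8%) and 8 lower (13.7%) in GM12813 than in GM07029, and 13 higher (29%) and 9 lower (18.9%) in GM10835 than in GM07029. In nascent RNA, 3 were higher (11%) and 18 lower (32.4%) in GM12813 than in GM10835, and 23 higher (41.6%) and 4 lower (13.7%) in GM10835 than in GM07029. Between GM12813 and GM07029, nascent RNA of 5 was higher (12.7%) and that of 0 lower by limma (5.65%), with 3 lower at an unadjusted p under 0.05. The contrasts share cultures and are not independent of each other. Of the 15 members called by the F test of the ratio, 6 (EDC4, LSM3, DCPS, EXOSC1, EXOSC5 and EXOSC8) kept the call whichever of the 9 cultures was left out. EXOSC9 lost it in 7 of 9 cases, all but those without GM07029 replicate 1 or 2 (highest adjusted p = 0.173). CNOT4 lost it without GM10835 replicate 2 or 3 (highest 0.0634), SMG5 without GM10835 replicate 3 (0.0633), and XRN2 and LSM6 without GM12813 replicate 2 or 3 (0.0603 and 0.0591). CNOT6L and LSM4 lost it without GM12813 replicate 2 or 3 or GM10835 replicate 2 or 3 (0.112 and 0.0853). EXOSC7 lost it without GM12813 replicate 2 or GM10835 replicate 1 or 3 (0.0784), and UPF1 without GM12813 replicate 2 or any GM10835 culture (0.0868).

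In total RNA, 19 of the 27 called members kept the F call whichever culture was left out, among them the 5 with the widest ranges, EXOSC1, EXOSC5, EXOSC7, EXOSC8 and LSM3. CNOT9 lost it without GM10835 replicate 2 (adjusted p = 0.0705), EXOSC2 without GM10835 replicate 1 (0.0642), DCP1B without GM07029 replicate 3 (0.0544) and PAN2 without GM07029 replicate 1 or 2 (highest 0.0582). CNOT6 lost it in 5 of 9 cases (highest adjusted p = 0.166, without GM07029 replicate 1), PARN in 6 (0.132, without GM10835 replicate 2), EDC4 in 7 (0.15, without GM12813 replicate 2) and DDX6 in 7 (0.119, without GM07029 replicate 3).

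In nascent RNA 21 of 27 kept it. DCP2 lost it without GM10835 replicate 1 (adjusted p = 0.0697), CNOT6L without GM07029 replicate 2 or 3 (highest 0.0718), EXOSC3 without GM10835 replicate 2 or 3 (0.0784) and XRN1 without GM07029 replicate 1 or 2 (0.0825). DDX6 lost it in 5 of 9 cases (highest adjusted p = 0.19, without GM12813 replicate 3) and CNOT11 in 7 (0.102, without GM10835 replicate 2). GM12815, which has 1 culture, had the lowest nascent RNA of the 7 lines for 29 of 40 members (72.5%, against 45.1% of all clusters). Its nascent array also had the lowest median (7.58 log2, other lines 7.75 to 7.91), and the part of this in the count of 29 was not tested.

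Genes that work with the decay machinery were described by the same tests, as 5 lists of 73 genes with 59 tested members. Of these, 26 were higher and 10 lower in the nascent/total ratio than the median cluster, and 23 did not pass, against 31.7% higher and 31.7% lower of all clusters. Among factors tied to the sequence-directed control of mRNA decay, 11 of 16 were higher and 0 lower (1 lower at an unadjusted p under 0.05 in limma), with a median of 0.46. AGO4, an Argonaute protein that binds miRNAs, is 1 of these 11, but its mean total RNA of 6.00 log2 was below background, so it entered the test through its nascent RNA (7.55 log2) and its higher ratio was favoured by the filter. RC3H2, a RING and zinc finger protein that binds stem-loops, was the highest of them (1.01 ± 0.31, adjusted p = 1.18e-05), and ZFP36, which binds AU-rich elements, the lowest that was called (0.33 ± 0.40, adjusted p = 0.0406, with 6 of 7 lines above 0). The deadenylase partners gave 3 higher and 2 lower of 11, between TUT7 (1.02 ± 0.26, adjusted p = 5.96e-06) and TUT4 (-0.51 ± 0.41, adjusted p = 0.00498), a pair of related enzymes that add uridines to short tails.

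Decapping enhancers and scavengers gave 3 higher (37.5%, against 31.7% of all clusters) and 0 lower (against 31.7%) of 8. At an unadjusted p under 0.05 in limma, 0 were lower as well. NUDT3, a hydrolase that can remove caps, stood at 0.63 ± 0.26 (adjusted p = 0.000163) and LSM14B at 0.34 ± 0.19 (adjusted p = 0.00396). Exosome cofactors gave 5 higher and 3 lower of 12 (41.7% and 25%). TENT4A, a nuclear poly(A) polymerase, had 0.98 ± 0.21 (adjusted p = 3.97e-06), and SKIC3, the scaffold of the SKI complex that feeds mRNA into the cytoplasmic exosome, had -1.55 ± 0.27 (adjusted p = 6.46e-07), a lower mean than any tested member of the core machinery. The partners of nonsense-mediated decay and the exon junction complex gave 4 higher and 5 lower of 12 (33.3% and 41.7%). SMG8, a regulator of the kinase SMG1, had 1.68 ± 0.38 (adjusted p = 1.4e-06), and MAGOH, a core subunit of the exon junction complex, -0.97 ± 0.34 (adjusted p = 2.01e-05).

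**Figure D5:**
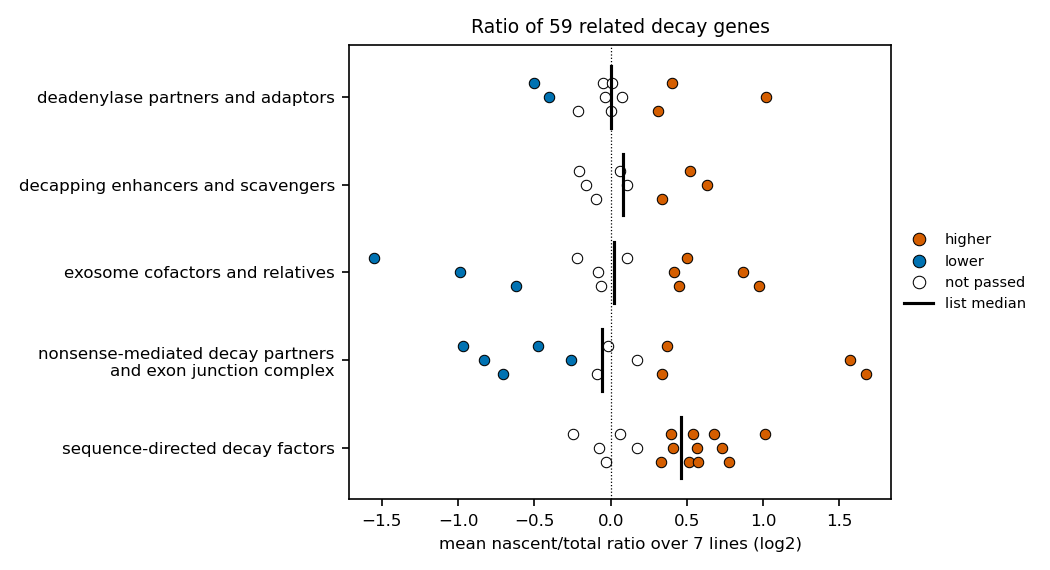
Mean nascent/total ratio over 7 lines (log2, horizontal axis) of 59 genes that work with the decay machinery, in 5 lists (vertical axis), coloured by whether they were higher, lower or not called at an adjusted p under 0.05, with a bar at the list median. In the list of sequence-directed decay factors 11 of 16 genes are higher and 0 lower, while the list of nonsense-mediated decay partners spans -0.97 to 1.68. The 11 include AGO4, whose mean total RNA (6.00 log2) is below background, so that its call was favoured by the filter.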

How the data were processed

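Values were the log2 gene-level intensities of human exon array transcript clusters that the authors deposited, 1 column per array. Affymetrix Power Tools and hg18 are listed per the submitters' processing notes. Not given in the sources used here: the version, the summary algorithm, the background correction and whether both fractions were normalized together. Of 21788 clusters, 14405 had a single platform symbol, 2365 several and 5018 none, and 14377 of the single symbols were found in a RefSeq gene table, used for names only. Technical duplicates were averaged. A background level (6.40 log2) was set at percentile 95 of the means of 216 olfactory receptor clusters, and the 14167 clusters (65.0%) with a mean above it were tested.

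The ratio was nascent minus total log2 value per culture, centred on the median tested cluster. Limma 3.58.1 in R 4.3.3 (lmFit, eBayes with trend, two-sided) tested 7 line means against 0 and compared the 9 cultures of GM12813, GM10835 and GM07029 by a moderated F test and 3 contrasts, with Benjamini-Hochberg adjustment over all clusters tested. The steps were tested on simulated data. P-values rest on cultures that the labels call biological replicates. Members and lists were chosen with earlier results of these data known. Every tested member is named. Values by line or culture are given for the 3 highest and 3 lowest called ratios of each step, for members called by the F test of the ratio, and for the 5 widest called ranges in each fraction. XRN1 and PAN3 were also given by culture, and UPF2 by line, after their values were seen. The LSM genes were counted as a group beyond the planned steps. Of each related list, the highest and lowest called genes are named. Alternatives changed centring, array scaling, the background filter, the signal trend, duplicates, blocking and the lines or cultures used.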

Additional observations from a re-analysis of the deposited data

Results flagged for a closer look

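Among the 7 line values of 40 members, a line lay far from the others by Dixon's test at the 95% level for 1 member in the ratio, 8 in nascent RNA and 8 in total RNA. Chance alone gives about 1 such case in every 20 members of a measure. The share of all clusters flagged in this way is not given here, so the counts are not read as particular to the members. Among all clusters, GM12815 was the lowest line in nascent RNA for 45.1%, and GM10835 the highest in total RNA for 30.2%. GM10835 was the highest line in total RNA of LSM4 (9.77 log2), LSM7 (7.95), EXOSC1 (9.78), EXOSC4 (8.46), EXOSC5 (9.50) and EXOSC7 (8.96), and the lowest in total RNA of PAN3 (9.29). It was also the highest in nascent RNA of LSM3 (8.47) and EXOSC7 (9.51) and the lowest in the ratio of EXOSC5 (-1.75). GM07029 was the highest in total RNA of UPF2 (8.68). GM12815 was the lowest in nascent RNA of CNOT11 (10.09), DCPS (8.16), EDC3 (8.93), EDC4 (8.88) and UPF1 (9.14), and GM12812 in that of CNOT4 (9.45). With each array centred on its median cluster, an alternative added after the data were seen, PAN3, DCPS, LSM7, EXOSC1, EXOSC4, EXOSC5, EXOSC7 and UPF2 still stood apart in the same fraction (EXOSC7 in total RNA only). CNOT4, CNOT11, EDC3, EDC4, LSM3, LSM4 and UPF1 did not.

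The nascent/total ratio differed between GM12813, GM10835 and GM07029 by the F test for 15 members. The range of line means was 1.42 for EXOSC8, 1.14 for EXOSC5, 1.14 for EXOSC1, 0.97 for LSM3, 0.67 for EDC4, 0.67 for LSM6, 0.66 for EXOSC7, 0.63 for XRN2, 0.60 for CNOT4, 0.57 for DCPS, 0.56 for CNOT6L, 0.55 for SMG5, 0.55 for LSM4, 0.49 for UPF1 and 0.37 for EXOSC9.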

How the results depend on the processing

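Calls of the ratio over 7 lines numbered 26, and 23 to 28 under the alternatives that kept the centring (48.8% to 64.7% of all clusters). Without one line at a time they numbered 23 to 27, with a median ratio between -0.11 and -0.04. Of the 26, 22 were kept under every alternative with centring, the exceptions being EDC3, LSM7, EXOSC7 and LSM3 (lost without the pairing of fractions). Without centring every ratio moves up by about the uncentred median of 0.77. Then 31 of 40 members were called, all higher, against 87.5% of all clusters called, 93.9% of these higher. Of the 26 calls 13 were kept, and the median was 0.71. The mean then turned positive for CNOT2 (0.71), CNOT6L (0.63), CNOT7 (0.30), PAN3 (0.31), PARN (0.028), DCP1B (0.56), DCP2 (0.055), DCPS (0.14), EDC4 (0.35), LSM2 (0.66), LSM3 (0.27), LSM6 (0.55), DDX6 (0.60), XRN2 (0.34), EXOSC1 (0.72), EXOSC2 (0.71), EXOSC3 (0.62), EXOSC5 (0.029), EXOSC8 (0.16) and EXOSC10 (0.75). With the trend on signal removed the median was 0.044, and DDX6 turned to 0.27 (the cause was not tested). F calls of the ratio numbered 15, but 9 with no filter, where more clusters were tested (9.23% of all clusters called). They numbered 8 with first arrays only, where fewer arrays entered (15.1%). Without one culture at a time they numbered 8 to 22 (12.8% to 35.8%), with 8 without GM10835 replicate 3 or GM12813 replicate 2. EDC4, EXOSC1, EXOSC5 and EXOSC8 kept the call in all 16 alternatives. F calls of total RNA numbered 27, and 22 to 26 without one culture (46.5% to 56.7% of all clusters). Those of nascent RNA numbered 27, and 24 to 29 without one culture (50.1% to 64.7%). With each array centred on its median cluster, the nascent call was lost for CNOT8, CNOT11, PAN2, EDC3, EXOSC2, EXOSC3, EXOSC5 and EXOSC10. In that setting 55.8% of all clusters were called in nascent RNA. Deviations of same-numbered cultures from their line means had correlations from -0.433 to 0.197 in the ratio (2 of 9 above 0.1). In total RNA they ran from -0.432 to 0.114 (2 of 9), and in nascent RNA from -0.459 to 0.392 (3 of 9). With 3 cultures per line, these values cannot tell whether the number marks a shared batch. With the culture number as a block, 13 members were called in the ratio (17.4% of all clusters), 24 in total RNA (49.5%) and 24 in nascent RNA (52.5%). Nascent and total line means taken as unpaired groups gave 23 calls (48.8% of all clusters). No member had more than 1 single-symbol cluster, so using every cluster changed nothing. LSM5 with no filter had a ratio of 1.47 (adjusted p = 8.56e-06), with total RNA below background.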
